A study of Mus musculus with 12 samples.

Results

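The beta defensin genes of the mouse were placed on maps of lamina-associated domains (LADs), the stretches of chromatin that lie at the nuclear lamina, in embryos of the 4-cell and the 8-cell stage. The members were all protein-coding genes whose symbol starts with Defb on chromosomes 1 to 19 of GRCm38, which gave 42 of 20558 protein-coding genes. Members no more than 1 Mb apart were taken as a cluster, which gave 5 clusters. Chromosome 1 held 2 members (Defb18 and Defb41), chromosome 2 held 11 (Defb23 to Defb25) and chromosome 14 held 5 (Defb48 to Defb42). Chromosome 8 held 14 in a proximal cluster (Defb40 to Defb7) and 10 in a distal cluster (Defb33 to Defb13). A gene was counted as LAD in a list when its midpoint lay in an interval of that list.

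The 4 groups were siControl and siRif1 embryos at the 4-cell and at the 8-cell stage, all of the cross (C57BL/6J xCBA) x DBA/2J and each with 3 replicates. Zygotes received 20 µM siRNA at 17 to 18 h after hCG. At 46 to 48 h all groups, controls included, received the degron-tagged Dam-LaminB1 fusion at 20 ng/µL, which methylates adenines in DNA near the lamina. Tir1 at 250 ng/µL and membrane eGFP at 100 ng/µL were injected with it. All embryos were cultured in 500 µM auxin, which removes the fusion, until 54 h for the 4-cell and 66 h for the 8-cell groups. Collection followed at 60 to 62 h and at 72 to 74 h. A replicate was a pool of 16 to 24 blastomeres, from 4 to 6 embryos of 4 cells or 2 to 3 embryos of 8 cells. Each group had a single LAD list made from all its replicates. No replicate error, read depth or p-value can therefore be given for any difference between groups, and none of the differences below was tested. In total the siControl 4-cell list held 785.7 Mb of LADs and the siRif1 4-cell list 1038.4 Mb. The siControl 8-cell list held 1066.7 Mb and the siRif1 8-cell list 1023.5 Mb. Distances to LADs and shares of a region in LADs are to be read beside these totals. The lists hold no RNA levels, so neither the stage nor the Rif1 knockdown could be checked against marker genes.

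Beta defensins are small secreted cationic peptides, held in shape by conserved cysteines joined in disulphide bonds, that kill microbes and act as attractants for immune cells. Many of the mouse genes are expressed in the epididymis, testis or lining epithelia, and some peptides coat the sperm surface. The family arose by repeated local duplication, so its genes lie in tight clusters of similar copies. LADs are as a rule poor in active genes, and Rif1 is a chromosomal protein known for setting the order in which the genome replicates.

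The promoter windows of 4 members of the proximal chromosome 8 cluster are shown because the only difference between siControl and siRif1 embryos in the family fell between the second and the third of them. They are not all neighbours, since Defb46 and Defb5 lie between Defb6 and Defb3. Each runs from 250 bases before to 50 bases after the annotated start (RefSeq, GRCm38.p6), 5′ to 3′ along the gene, with the motif TATAA in capitals. Defb6 lies at chr8:19225228-19225527 on the plus strand, Defb3 at chr8:19293111-19293410 on the plus strand, Defb8 at chr8:19447557-19447856 on the minus strand and Defb7 at chr8:19494847-19495146 on the plus strand.
Defb6: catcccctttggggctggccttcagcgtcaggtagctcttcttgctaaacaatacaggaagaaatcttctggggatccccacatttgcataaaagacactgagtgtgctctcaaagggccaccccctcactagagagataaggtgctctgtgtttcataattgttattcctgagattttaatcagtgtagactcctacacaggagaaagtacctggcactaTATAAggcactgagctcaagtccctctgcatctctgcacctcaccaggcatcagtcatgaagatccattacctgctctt
Defb3: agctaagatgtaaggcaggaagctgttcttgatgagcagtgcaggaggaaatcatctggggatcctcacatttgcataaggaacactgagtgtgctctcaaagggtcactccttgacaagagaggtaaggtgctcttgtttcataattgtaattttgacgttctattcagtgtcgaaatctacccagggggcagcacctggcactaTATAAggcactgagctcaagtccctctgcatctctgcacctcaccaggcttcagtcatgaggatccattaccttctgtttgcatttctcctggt
Defb8: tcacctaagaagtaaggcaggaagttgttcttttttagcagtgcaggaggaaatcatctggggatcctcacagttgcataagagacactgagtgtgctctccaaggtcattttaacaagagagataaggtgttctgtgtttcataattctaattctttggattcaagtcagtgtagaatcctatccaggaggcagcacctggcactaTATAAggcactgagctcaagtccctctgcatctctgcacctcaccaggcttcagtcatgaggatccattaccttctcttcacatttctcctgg
Defb7: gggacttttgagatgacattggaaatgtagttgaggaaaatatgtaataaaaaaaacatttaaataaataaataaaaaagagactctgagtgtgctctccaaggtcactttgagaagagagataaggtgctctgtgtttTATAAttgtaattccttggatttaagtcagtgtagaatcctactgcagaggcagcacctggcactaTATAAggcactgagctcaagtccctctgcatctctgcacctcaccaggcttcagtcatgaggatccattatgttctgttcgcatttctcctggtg
The Defb6 and Defb3 windows were LAD in both 8-cell lists, and the Defb8 and Defb7 windows in the siControl 8-cell list alone. All 4 windows hold the same run of 60 bases, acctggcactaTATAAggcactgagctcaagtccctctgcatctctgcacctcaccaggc, the longest that these 4 share. No other of the 31396 promoter windows compared holds it, those of Defb46 and Defb5 included. Windows were found for only 29 of the 42 members, and for 8 of the 14 in this cluster, so the others were not compared. Among the 29 the windows of Defb3 and Defb8 were the most alike of 406 pairs, with 87.9% identity over 306 aligned columns, against a median of 50.6%. Members with closely similar windows thus stood on opposite sides of the siRif1 8-cell LAD border. How the authors treated reads that match several copies is not given in the sources used here, and its part in the calls was not tested.

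At the 4-cell stage no beta defensin gene was LAD. In siControl 4-cell embryos 0 of 42 members were LAD, against 24.2% of all protein-coding genes. In siRif1 4-cell embryos 0 of 42 were LAD, against 23.5%. No member therefore differed between the 4-cell groups in either direction, where 7.22% of all genes were LAD in siRif1 alone and 7.92% in siControl alone. The members sit in 5 places of the genome and share their LAD with their neighbours, so these counts rest on 5 clusters and not on 42 separate genes.

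At the 8-cell stage the proximal chromosome 8 cluster was LAD and the other 4 clusters were not. In siControl 8-cell embryos 12 of 42 members (28.6%) were LAD, against 25.8% of all protein-coding genes. In siRif1 8-cell embryos 10 of 42 members (23.8%) were LAD, against 23.8% of all genes. Over the whole family these shares lie close to the background, but all 12 and all 10 members came from 1 cluster, of which they made up 85.7% and 71.4%. No member was LAD in all 4 lists (9.47% of all genes), and 30 members (71.4%) were LAD in none, against 58.3% of all genes.

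**Figure D1:**
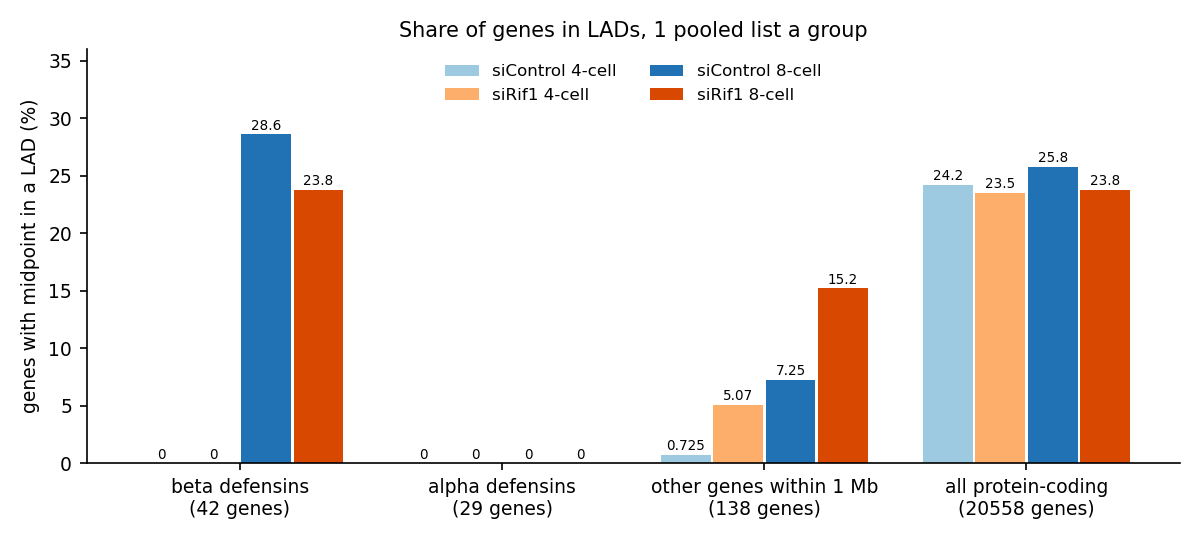
Percent of genes whose midpoint lies in a LAD (vertical axis) for beta defensins, alpha defensins, other protein-coding genes that start within 1 Mb of a beta defensin cluster (alpha defensins included) and all protein-coding genes, with 1 bar per pooled list and so no error bars. Beta defensins stand at 0% in both 4-cell lists and at 28.6% and 23.8% in the 8-cell lists, while all genes stay between 23.5% and 25.8%.

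From the 4-cell to the 8-cell stage members could only gain LAD state, since none was LAD in either 4-cell list. The counts of 0 losses below follow from that. In control embryos 12 members were LAD at the 8-cell stage and not at the 4-cell stage (28.6%, all genes 10.9%), and 0 went the other way (all genes 9.39%). In siRif1 embryos 10 members were LAD at the 8-cell stage alone (23.8%, all genes 8.65%), and 0 at the 4-cell stage alone (all genes 8.41%). The 10 members that changed in siRif1 embryos were among the 12 of control embryos. All lie in the proximal chromosome 8 cluster, so the gains rest on 1 cluster and not on separate genes.

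The 10 members that were LAD in both 8-cell lists form an unbroken row from Defb38 to Defb3 (chromosome 8, 19023404 to 19295339). It holds Defb38, Defb39, Defb12, Defb34, Defb14, Defb4, Defb6, Defb46, Defb5 and Defb3. Among them Defb4, Defb3 and Defb14 encode inducible antimicrobial peptides of epithelia, and Defb14 is the mouse counterpart of a human beta defensin of skin. Defb12 and its neighbours Defb38 and Defb39 belong to the epididymal members. Both kinds therefore lay in the same LADs. Spag11a and Spag11b, epididymal genes with defensin-like products that lie between Defb34 and Defb14, were likewise LAD in both 8-cell lists and in neither 4-cell list.

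The LAD around these genes began in the same bin in both 8-cell groups. In siControl 8-cell embryos it ran from 19000001 to 20600000 (1.6 Mb), and 95.2% of the cluster span was LAD. In siRif1 8-cell embryos a LAD of 0.4 Mb (19000001 to 19400000) held the 10 genes, and a second of 0.8 Mb (19900001 to 20700000) followed, so that 76.5% of the cluster span was LAD. The nearest LADs of the siControl 4-cell list ended 0.37 Mb before the cluster and began 9.1 Mb after it. The siRif1 4-cell list had the same distance before the cluster, but a LAD of 0.7 Mb (19900001 to 20600000) began 0.4 Mb after it. The siRif1 4-cell list thus already held the stretch beyond Defb7 that was LAD in both 8-cell lists, without the defensin genes.

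**Figure D2:**
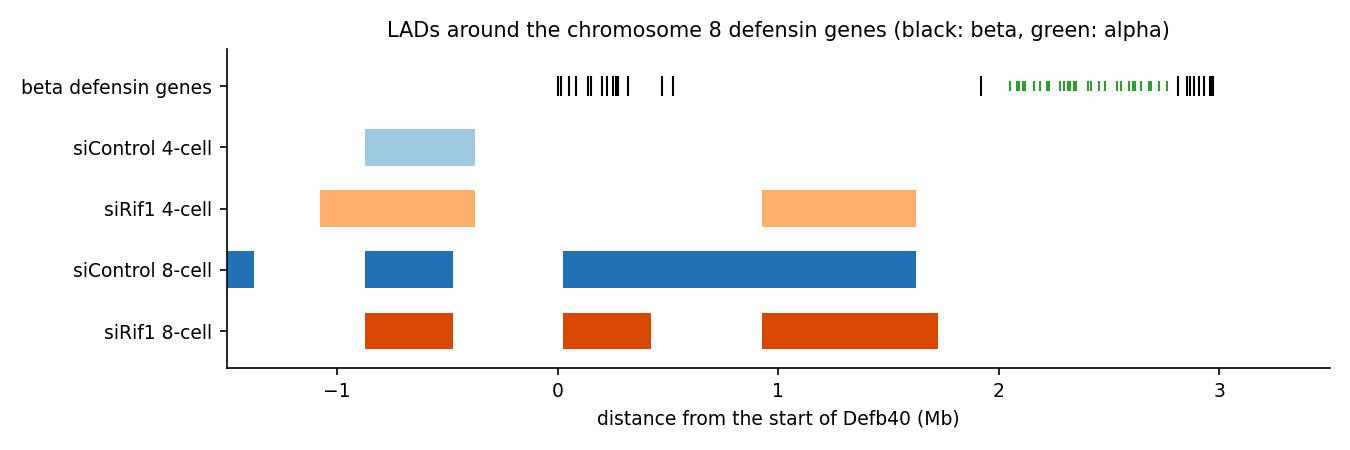
Map of LADs (bars, 1 row per pooled list) around the chromosome 8 defensin genes, with the distance from the start of Defb40 in Mb on the horizontal axis and gene midpoints as ticks (black, beta defensins; green, alpha defensins). The 8-cell rows have a LAD over the proximal genes that the 4-cell rows lack; it is 1.6 Mb long in siControl and interrupted for 0.5 Mb in siRif1 embryos, and no row has a LAD over the distal genes.

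Between the 8-cell groups, Defb8 and Defb7 were LAD in siControl and not in siRif1 embryos. They are 2 of 42 members (4.76%), against 9.18% of all protein-coding genes, and 0 members were LAD in siRif1 alone, against 7.18%. Both genes lie in the stretch of 0.5 Mb (19400001 to 19900000) that was LAD in siControl 8-cell embryos alone. Its only other protein-coding gene is 4930467E23Rik, among 14 annotated genes of any kind. Defb8 (19445769 to 19447606), known also as Defr1, and Defb7 (19495097 to 19497775) are set apart from the other members as well, since the 150.4 kb between Defb3 and Defb8 is the widest gap between neighbours in this cluster, where the median gap is 26.3 kb. The siRif1 LAD border fell in that gap.

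The border lies close to these genes. In siRif1 8-cell embryos the midpoint of Defb8 lay 46.7 kb and that of Defb7 96.4 kb outside the nearest border, which is less than the 100-kb bin of the lists. In siControl 8-cell embryos Defb8 lay 446.7 kb and Defb7 496.4 kb inside. With every LAD lengthened by 1 bin at both ends, the number of members LAD in siControl 8-cell embryos alone was 0. At the opposite end of the cluster, Defb40 and Defb37 were outside LADs in all 4 lists, but in both 8-cell lists they lay 23.4 kb and 11.4 kb from the border. Defb38 and Defb39 lay inside it by less than 1 bin, Defb39 by 58.9 kb. The 8 members from Defb12 to Defb3 lay more than 1 bin inside, by 113.4 to 294.4 kb in siControl and by 105.7 to 199.9 kb in siRif1 8-cell embryos.

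**Figure D3:**
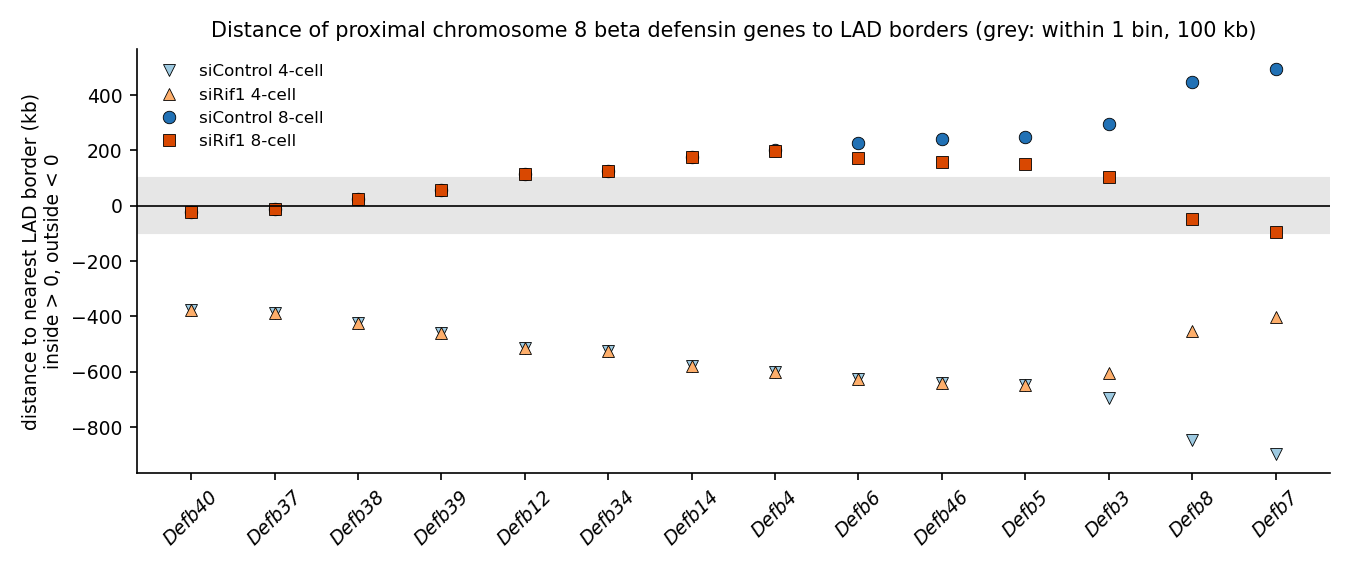
Distance in kb from the midpoint of each proximal chromosome 8 member (horizontal axis, in order of position) to the nearest LAD border, positive inside and negative outside a LAD, with 1 symbol per pooled list; symbols overlie one another where lists share a border, and the grey band marks 1 bin (100 kb). Defb12 to Defb3 lie above the band in both 8-cell lists, Defb8 and Defb7 lie above it in siControl and within it, below 0, in siRif1 8-cell embryos, and all members lie at least 376.6 kb outside LADs in both 4-cell lists.

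The distal chromosome 8 cluster lay outside LADs in all 4 lists, although it is only 1.39 Mb away from the proximal one. It holds Defb1, which encodes a beta defensin made constitutively by epithelia, together with Defb50, Defb2, Defb10, Defb9, Defb11, Defb15, Defb35 and Defb13, and Defb33 on its own 878.8 kb before Defb1. Defb33 was the member nearest to a LAD, 195.2 kb away in siRif1 8-cell embryos, 295.2 kb in siControl 8-cell and siRif1 4-cell embryos and 2295.2 kb in siControl 4-cell embryos. The 29 genes with symbols starting Defa that the annotation gives as protein-coding lie between Defb33 and Defb1. Alpha defensins are the related peptides of intestinal Paneth cells, and the 29 include Defa-ps8, which is named as a pseudogene. All 29 were LAD in no list, against 58.3% of all protein-coding genes. They lie in 1 stretch of 0.88 Mb, so this is 1 place and not 29 separate calls. In the 1.39 Mb between Defb7 and Defb33, by contrast, LADs covered 0% in siControl and 50.2% in siRif1 embryos at the 4-cell stage, and 79.0% and 57.4% at the 8-cell stage. The far border of these LADs lay before Defb33 in each of the 3 lists that had one there. The remaining list, siControl 4-cell, also held the least LAD over the genome.

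The chromosome 1 pair lay in a gap between LADs. Defb18 (18236402 to 18237476) and Defb41 (18250978 to 18265138), the latter an epididymal gene, were LAD in no list. Defb18 was 736.9 kb from the nearest LAD in siControl 4-cell embryos, 236.9 kb in siRif1 4-cell, 136.9 kb in siControl 8-cell and 236.9 kb in siRif1 8-cell embryos. The siControl 4-cell list held the least LAD over the genome, 785.7 Mb, where each of the other lists held at least 1023.5 Mb. LADs covered 13.2% of the 1 Mb on either side in siControl 4-cell embryos, against 61.4% in siRif1 4-cell embryos and 63.3% and 71.4% in the siControl and siRif1 lists of the 8-cell stage. Of the 5 other protein-coding genes there, Pi15, Crispld1 and the transcription factor genes Tfap2d and Tfap2b were LAD in these 3 lists and not in siControl 4-cell embryos. Crisp4, which encodes a sperm-coating protein of the epididymis, is the protein-coding gene nearest to the pair and was LAD in none. It lies (18114889 to 18145902) less than 1 bin beyond a siControl 8-cell LAD that ended at 18100000.

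The chromosome 2 cluster (152459055 to 152623053) was far from LADs. It holds 11 genes, among them Defb22, whose product is a main component of the sperm glycocalyx, and Defb23, Defb26 and Defb19, which are expressed in the male reproductive tract. The nearest member lay 777.3 kb from a LAD in siControl 4-cell, 2361.8 kb in siRif1 4-cell, 1061.8 kb in siControl 8-cell and 661.8 kb in siRif1 8-cell embryos. Around it 11 of 47 other genes (23.4%) were LAD in siRif1 8-cell embryos, close to the 23.8% of all protein-coding genes. Among them Nsfl1c, Fkbp1a and Psmf1 lie in a single LAD of 0.6 Mb. In siControl 4-cell embryos 1 gene (2.13%) was LAD, against 24.2% of all genes. In siRif1 4-cell and siControl 8-cell embryos 0 were LAD, against 23.5% and 25.8%. LADs thus came nearest to this cluster in siRif1 8-cell embryos without reaching a member.

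The chromosome 14 cluster (62977524 to 63048606) holds Defb48, Defb47, Defb43, Defb30 and Defb42. Its nearest member lay 3081.0 kb from a LAD in siControl 4-cell, 4081.0 kb in siRif1 4-cell, 981.0 kb in siControl 8-cell and 1352.2 kb in siRif1 8-cell embryos. None of 21 other protein-coding genes within 1 Mb was LAD in any list, where 58.3% of all protein-coding genes were LAD in none. Both 8-cell lists came closer to the cluster than both 4-cell lists, through LADs of 0.2 Mb that lay on opposite sides of it. This order rests on 1 such short LAD in each 8-cell list.

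**Figure D4:**
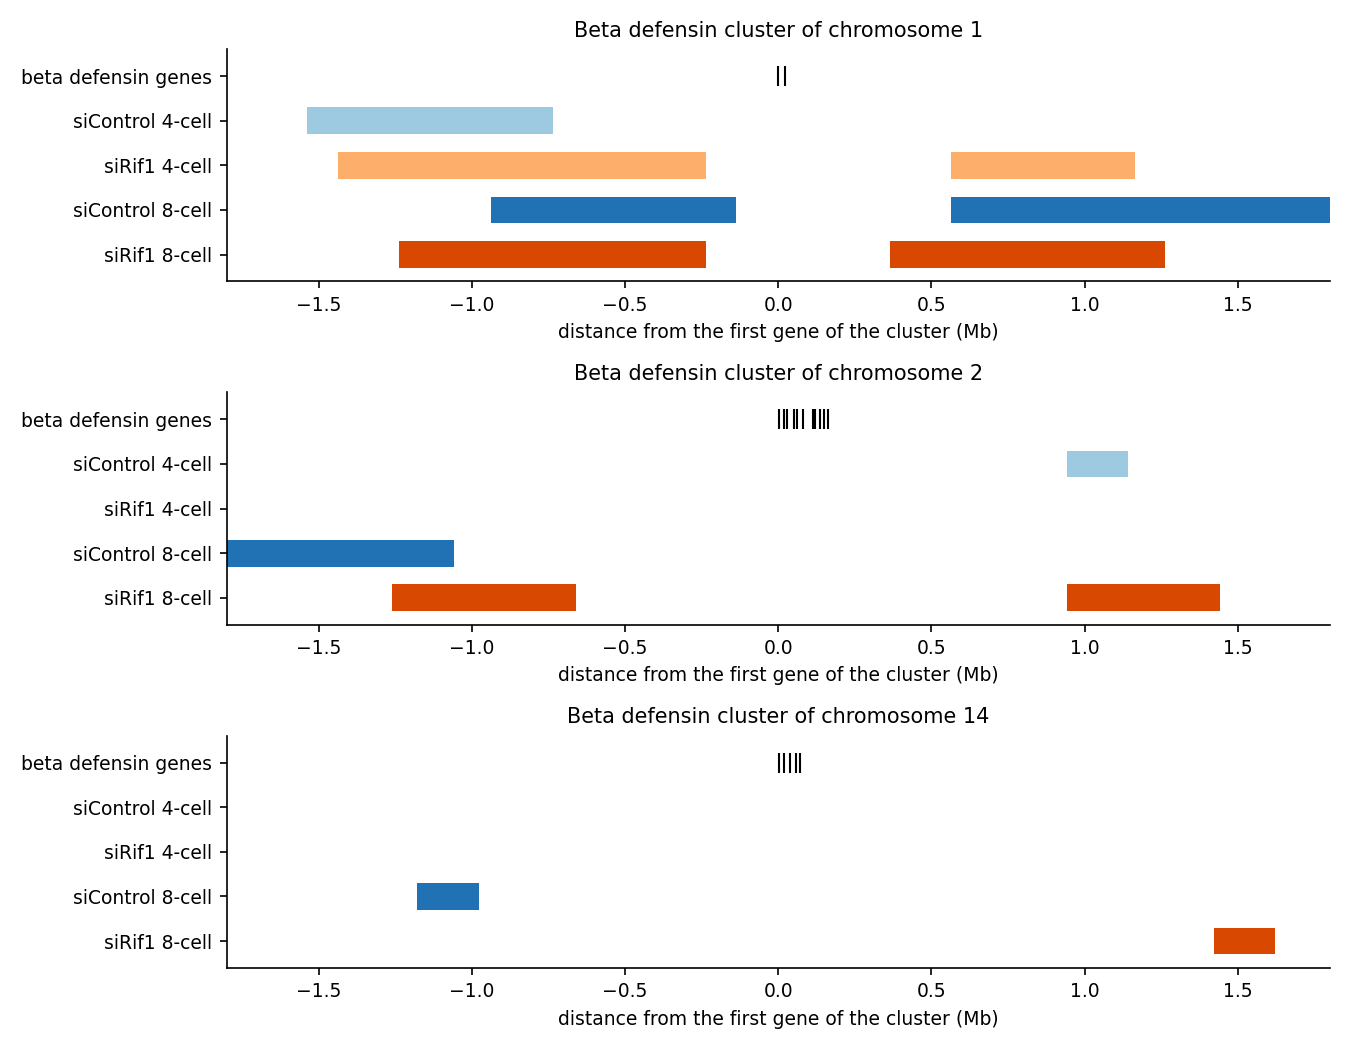
LADs (bars, 1 row per pooled list) around the beta defensin clusters of chromosomes 1, 2 and 14, with the distance from the first gene of each cluster in Mb on the horizontal axis and member midpoints as ticks. The chromosome 1 pair lies between LADs in 3 lists, and no LAD overlies a member in any panel.

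Genes around the clusters differed in state from cluster to cluster. Of 138 other protein-coding genes that start within 1 Mb, the 29 alpha defensins included, 1 was LAD in siControl 4-cell (0.725%), 7 in siRif1 4-cell (5.07%), 10 in siControl 8-cell (7.25%) and 21 in siRif1 8-cell embryos (15.2%). All 4 shares are below those of all protein-coding genes, and 116 of the 138 (84.1%, all genes 58.3%) were LAD in no list. The pool is weighted towards 58 neighbours of the distal chromosome 8 cluster and 47 of the chromosome 2 cluster. Around the chromosome 1 pair 80% of 5 genes were LAD in every list but siControl 4-cell. Around the proximal chromosome 8 cluster 5 of 9 genes (55.6%) were LAD in siControl 8-cell and 4 (44.4%) in siRif1 8-cell embryos. Both counts include Spag11a and Spag11b, which lie inside the cluster span. Of these 9 genes, Mcph1, Angpt2, Agpat5 and Xkr5, which precede the cluster, were LAD in no list. On the other side 9530057J20Rik and Gm15319 were LAD in siRif1 4-cell and in both 8-cell lists.

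Genes that act with beta defensins were split over LADs and the rest of the genome. Of 15 receptor and signalling genes, 3 (20%) were LAD in siControl 4-cell, 4 (26.7%) in siRif1 4-cell and 5 (33.3%) in each 8-cell list. All protein-coding genes stood at 24.2% and 23.5% at the 4-cell stage and at 25.8% and 23.8% at the 8-cell stage, in the order siControl, siRif1. The microbial sensor gene Tlr2 and the signalling genes Traf6 and Nfkb1 were LAD in all 4 lists (20% of the 15, all genes 9.47%). Ccr2, a chemokine receptor gene, was LAD in all but siControl 4-cell embryos, the melanocortin receptor gene Mc4r in siControl 8-cell embryos alone and the adaptor gene Myd88 in siRif1 8-cell embryos alone. The remaining 9 (60%) were LAD in none, close to the 58.3% of all genes. Among them was Ccr6, the receptor gene through which beta defensins attract dendritic and T cells. Of 15 other antimicrobial genes, 3 (20%) were LAD in siControl and 4 (26.7%) in siRif1 embryos at the 4-cell stage, 4 (26.7%) and 5 (33.3%) at the 8-cell stage. In no list were 7 (46.7%, all genes 58.3%). At the 8-cell stage 2 of the LAD genes in each list were Spag11a and Spag11b, which lie inside the proximal defensin cluster. S100a8 and S100a9, subunits of the metal-binding calprotectin, were LAD in siRif1 4-cell embryos alone, and the lectin gene Reg3g in both 4-cell lists alone. The ribonuclease gene Ang4 was LAD in siRif1 8-cell embryos alone, and Retnlb, a product of gut goblet cells, in all but siRif1 4-cell embryos. Mmp7, the protease that activates alpha defensins, was LAD in all 4 lists (1 of 15, 6.67%, all genes 9.47%).

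Promoter windows were found for 29 of the 42 members (30 windows). Their median GC content was 48.3%, from 29.7% in Defb41 to 56.7% in Defb29, against 57% over 20085 windows of protein-coding genes. They held a median of 1.5 CpG dinucleotides, against 14. In the proximal chromosome 8 cluster the 8 windows had a median GC content of 45.8% and 1 CpG, and in the other clusters 22 windows had 49.3% and 2.5. TATAA, searched on both strands, was found in 6 of 8 proximal windows (75%) and in 5 of 22 others (22.7%), against 21.9% of windows of protein-coding genes. It began 44 bases before the start in Defb3, 43 in Defb8, 45 and 111 in Defb7 and 29 in Defb6. In Defb5 it began 56 and in Defb39 244 bases before the start. The members are copies of one another, so these windows are not independent. The motif was found in the windows of Defb8 and Defb7, LAD in siControl 8-cell embryos alone, and of the 6 windows that were LAD in both 8-cell lists Defb39, Defb6, Defb5 and Defb3 held it, while Defb38 and Defb46 did not.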

How the data were processed

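DamID signal of a Dam-LaminB1 fusion was measured in 12 samples, 3 replicates in each of 4 groups. Per the submitters' processing notes, the tools were Trimmomatic, Bowtie2, SAMtools and Picard (versions not given) and the build was mm10 (GRCm38). Neither the LAD caller nor a correction for untethered Dam is given in the sources used here. The authors deposited 1 list of LAD starts and ends per group, on a 100-kb grid and made from all replicates, per the series' design text, and depth is unknown from the lists. A caller threshold that depends on depth could move borders by whole bins, which was not tested.

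Gene positions were those of RefSeq on GRCm38.p6. Of 47042 entries, 333 that followed the sorted run of their chromosome were taken as scaffold entries and dropped. Placement, coverage, clusters and distances were computed in Python 3.11.15 with pandas 2.3.3 and NumPy 2.4.6 and checked on simulated intervals. Coordinates are 1-based. Promoter windows were aligned globally with Biopython 1.88 (match 1, mismatch -1, gap opening -2, extension -0.5). The members and gene lists were chosen with earlier results of these data known. Named were members whose state differs between lists, the first and last member of each cluster, the member nearest to a LAD border, and genes of the fixed lists whose state differs; other names were chosen after their values were seen. Alternatives were dropping LADs under 300 kb, bridging gaps up to 200 kb, LADs shortened or lengthened by 1 bin, whole genes, transcription starts (29 members with a known strand, the midpoint for the rest), any biotype and a 500-kb cluster gap. A further alternative, chosen after the data were examined, added genes known by an older Defb symbol. Of 5 such genes only the 2 protein-coding ones, Gm15056 and Gm6040, were added. The pseudogenes were not, and of these Defa-ps12 and Defa-ps13 were LAD in both 8-cell lists.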

Additional observations from a re-analysis of the deposited data

How the results depend on the processing

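Each of 14 counts of members was recomputed under 8 alternatives. Many of the counts are 0 or count the same members again, so they are not separate checks. The counts stayed within 1.5 times of the reported value, with 1 exception. With LADs lengthened by 1 bin at both ends, members LAD in siControl 8-cell and not in siRif1 8-cell embryos went from 2 to 0. Members LAD in siRif1 8-cell embryos then went from 10 to 14, which is within that limit. The same setting brought Defb40 and Defb37 into both 8-cell lists, and LADs shortened by 1 bin took Defb38 and Defb39 out of both. Of the proximal chromosome 8 span, 76.1% (siControl 8-cell) and 38.3% (siRif1 8-cell) were LAD with shortened LADs, and 100.0% in both with lengthened LADs. With a 500-kb gap Defb33 stood alone and the clusters numbered 6. Dropping LADs under 300 kb could not change a call, since the LADs that held members were 1.6 and 0.4 Mb long. It does remove the LADs of 0.2 Mb nearest to the chromosome 14 cluster in both 8-cell lists. The LAD of 0.2 Mb nearest to the chromosome 2 cluster in the siControl 4-cell list is removed as well. Distances were not recomputed without them. Bridging gaps up to 200 kb could not join the siRif1 8-cell LADs, whose gap was 0.5 Mb. No paired analysis was possible because each list is pooled over replicates and no test was made, and for the same reason no replicate could be left out. The lists give no depth, so counting error in a border cannot be stated.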

Other observations

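Alpha defensin pseudogenes, which were not members, were placed on the same lists. LAD state is read from position, so pseudogenes that lie among beta defensin genes add no separate evidence. Of 11 such genes that the annotation does not give as protein-coding (Defa-ps8, which it does, was counted with the alpha defensin genes), 4 lie between Defb40 and Defb7. Defa-ps12 (19210462 to 19212760) and Defa-ps13 (19300677 to 19304794), whose older symbols start with Defb, were LAD in both 8-cell lists. Defa-ps14 (19422506 to 19423444) and Defa-ps15 (19472893 to 19474732) were LAD in the siControl 8-cell list alone. The other 7 lie among the alpha defensin genes and were LAD in no list. The protein-coding genes Gm15056 and Gm6040, whose older symbols also start with Defb, lie beside Defb33 and were LAD in no list. The pseudogene Defb44-ps beside Defb18 was LAD in none either.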
